A study of Mus musculus with 4 samples.

Results

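Newly activated CD4 T cells are the T cells of this study that carry the authors' label "newly activated CD4", one of 17 labels given to 15621 single nuclei. The label holds 600 cells, of which 523 came from tumor and 77 from cecum. The members were taken by this label alone, which the authors had set from the RNA of the same nuclei, so that chromatin features that follow the defining RNA are not independent of it. The study describes a CD4+ cluster of recent lymph node emigrants, marked by high S1pr1 RNA. The sources used here do not link it to a label by name. It is the CD4+ cluster left when the study's other CD4+ clusters are matched to the other CD4+ labels. S1pr1 RNA thus likely marked this label, so that S1pr1 levels below are a description and support nothing about the label. The T cells had been sorted from AKP tumors and from the adjacent cecum, 4 weeks after tumor transplantation. AKP tumors grow from mouse colon organoids that lack Apc and Trp53, among other engineered changes, injected under the serosa of the cecum, the first part of the large bowel. The assay was a 10x multiome, in which each nucleus gives both its RNA and its open chromatin (ATAC), and only the ATAC fragments of 1 tumor and 1 cecum library were used here. Both libraries came from tumor-bearing mice, so that the cecum is tissue beside a tumor and not that of a healthy animal.

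Naive CD4 T cells circulate between blood and lymph nodes, guided in by CCR7 and out by the sphingosine phosphate receptor S1PR1, whose gene is switched on by the factor KLF2. After antigen contact a T cell opens the chromatin of cytokine, chemokine receptor and costimulation genes, and the naive genes are shut step by step. Cells that keep meeting antigen in a tumor express PD-1 (Pdcd1) and other inhibitory receptors such as TIM-3 (Havcr2). The comparisons below therefore set newly activated cells against the CCR7+ CD4 label, which holds the cells with the naive chemokine receptor, and against the PD1+ CD4 label.

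Accessibility is given as FPM, the number of unique fragments of all cells of a label with an end in a window per 1000000 fragments of that label. A gene's window is its annotated span with 5 kb on both sides. With 1 library per tissue there was no replicate, and differences are therefore described without a test. Intervals of log2 ratios are exact, at 95%, and cover counting error only. A difference of 2-fold or more is counted as called. A gene was tested with at least 50 fragments over both labels, which the deeper label could supply alone. Genes low in that label drop out, so that list counts and medians can lean upward over CCR7+ CD4. Over PD1+ CD4, the deeper label there, they can lean downward.

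The results below turn on genes of recirculation, of the type 1 program and of inhibition, and the 250 bases before the start of 4 of them are shown because these genes carry the comparisons with CCR7+ CD4 and PD1+ CD4. The sequences are RefSeq's for GRCm38.p6 (mm10), written 5′ to 3′ on the gene's strand, with a motif in capitals. Klf2 lies on the plus strand (chr8:72318812-72319061) and holds the MEF2 motif CTAAATTTAG, a palindrome that begins 118 bases before the start. Ifng, the gene of interferon gamma, also lies on the plus strand (chr10:118440796-118441045) and holds the ATF/Jun motif TACGTAA, which the other strand would show as TTACGTA, at 59 bases before the start. Havcr2 (plus strand, chr11:46454681-46454930) and Tigit (minus strand, chr16:43664185-43664434) hold the RUNX motif TGTGGT or its complement ACCACA, at 46 and 140 bases before the start.
Klf2: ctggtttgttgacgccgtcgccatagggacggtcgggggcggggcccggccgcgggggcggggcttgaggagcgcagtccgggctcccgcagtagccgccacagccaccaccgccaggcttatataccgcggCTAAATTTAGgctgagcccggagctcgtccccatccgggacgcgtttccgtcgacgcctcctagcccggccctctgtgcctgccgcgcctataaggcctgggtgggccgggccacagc
Ifng: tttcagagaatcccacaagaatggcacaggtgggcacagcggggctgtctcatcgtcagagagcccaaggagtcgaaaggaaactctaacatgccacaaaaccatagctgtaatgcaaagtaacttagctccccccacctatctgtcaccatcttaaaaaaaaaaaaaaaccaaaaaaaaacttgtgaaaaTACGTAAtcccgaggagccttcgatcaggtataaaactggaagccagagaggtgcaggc
Havcr2: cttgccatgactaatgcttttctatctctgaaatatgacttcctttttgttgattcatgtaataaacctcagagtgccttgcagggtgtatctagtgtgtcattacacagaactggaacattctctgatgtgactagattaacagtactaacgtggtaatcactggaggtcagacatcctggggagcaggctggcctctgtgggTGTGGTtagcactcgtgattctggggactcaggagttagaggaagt
Tigit: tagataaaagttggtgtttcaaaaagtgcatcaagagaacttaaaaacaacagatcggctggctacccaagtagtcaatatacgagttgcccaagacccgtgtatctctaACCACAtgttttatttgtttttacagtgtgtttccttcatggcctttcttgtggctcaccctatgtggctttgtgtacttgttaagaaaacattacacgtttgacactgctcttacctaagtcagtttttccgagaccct
Of 32851 such stretches of 250 bases in the RefSeq table, the MEF2 motif was in 13 (0.0396%), the ATF/Jun motif in 142 (0.432%) and the RUNX motif in 4614 (14.0%). A match describes the letters of the window and is not a bound site.

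Accessibility of a promoter was counted over these 250 bases and the 50 after the start. In tumor, the Klf2 promoter window had 81.1 FPM in newly activated cells, 91.8 FPM in CCR7+ CD4 and 23.9 FPM in PD1+ CD4. The log2 ratio was -0.18 over CCR7+ CD4 and 1.76 (1.46 to 2.07) over PD1+ CD4, so that this promoter was open as in CCR7+ CD4 cells within counting error and far more open than in PD1+ CD4. The Ifng promoter window showed another pattern, with 42 fragments (14.0 FPM) in newly activated cells, 0 in CCR7+ CD4 and 17.9 FPM in PD1+ CD4. With a floor of 3 fragments in place of 0, the log2 ratio over CCR7+ CD4 was 1.77, and its exact interval began at 1.41. The Havcr2 promoter window had 7.67 FPM in newly activated cells, 1.37 FPM in CCR7+ CD4 and 19.4 FPM in PD1+ CD4, a log2 ratio of -1.34 (-2.05 to -0.68) over PD1+ CD4. Tigit encodes an inhibitory receptor, and its promoter window was the most open of the 3 labels in newly activated cells, at 62.1 FPM against 23.3 in CCR7+ CD4 (log2 1.41, 0.70 to 2.22) and 36.1 in PD1+ CD4 (log2 0.78, 0.49 to 1.07).

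The libraries held 96747563 fragments in tumor and 66466111 in cecum, from 3.11 and 4.29 read pairs per fragment. In tumor the newly activated cells had 2997419 fragments in all, the 164 CCR7+ CD4 cells 729919 and the 616 PD1+ CD4 cells 6143256, so that CCR7+ CD4 limits the precision. The median newly activated cell had 4319 fragments (range 204 to 24305), against 3898.5 in CCR7+ CD4 and 9642.5 in PD1+ CD4. The share of fragments within 1 kb of a gene end was 44.7% in newly activated cells, 45.9% in CCR7+ CD4 and 38.8% in PD1+ CD4, and scaling by these fragments instead moves every log2 ratio over PD1+ CD4 by -0.20 and every ratio over CCR7+ CD4 by 0.04. Cells above 3 times the median of their library were 21 of 523 newly activated, 1 of 164 CCR7+ CD4 and 97 of 616 PD1+ CD4 cells. In the cecum 44 of 125 CCR7+ CD4 cells were that deep. Of the labelled barcodes 84 occurred in both libraries, 9 of them in a newly activated cell.

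Newly activated cells were 6.18% (5.67 to 6.71) of the 8466 labelled tumor cells and 1.08% (0.85 to 1.34) of the 7155 labelled cecum cells. Among cells with a CD4+ label they were 17.1% in tumor and 2.51% in cecum. Of the 600 cells 87.2% (84.2 to 89.7) lay in tumor, against 54.2% of all labelled cells. PD1+ CD4 cells had 616 members in tumor and 14 in cecum, while CCR7+ CD4 cells numbered 164 and 125. Tissue and library cannot be told apart in these shares.

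The window of Cd4, the coreceptor gene, had 82.7 FPM in newly activated cells (248 fragments), within the range of 66.0 to 99.6 FPM over the 9 CD4+ labels, and 82.0 FPM in the cecum. The labels of CD8 T cells had less, from 30.3 FPM in CD8aa to 64.2 in CCR7+ CD8. As the label was set from RNA of the same nuclei, these levels describe it and are no independent check. The Cd4 window also holds Gpr162. Cd4 was close to CCR7+ CD4 (94.5 FPM, log2 ratio -0.19) and to PD1+ CD4 (77.2 FPM, log2 ratio 0.10). Zbtb7b, the factor that directs T cells to the CD4 lineage, had 133 FPM. Cd8a, a coreceptor gene of CD8 T cells, had 17.01 FPM (13.7 in CCR7+ CD4, 22.3 in PD1+ CD4), and Cd8b1 had 17.3 FPM. Some markers of other cells were near 0. Trdc, of the γδ T cell receptor, had 0.67 FPM, the myeloid gene Lyz2 1.33 FPM, the B cell gene Ms4a1 2.34 FPM and the epithelial keratin gene Krt19 0.33 FPM. The summed level of the 6 B cell markers was 148 FPM in newly activated, 178 in CCR7+ CD4 and 150 in PD1+ CD4, that of the 6 myeloid markers 209, 219 and 187 FPM, and that of the 10 epithelial markers 121, 125 and 131 FPM. Of 3 tested B cell markers 1 was 2-fold higher than in CCR7+ CD4, where 3.78% of all tested genes were. It was Pax5 with 25.4, 10.96 and 36.6 FPM (log2 1.21, 0.16 to 2.47). The 5 γδ and innate-like markers summed to 67.4, 79.5 and 72.8 FPM and the 2 CD8 markers to 34.4, 38.4 and 47.7 FPM. The 2 CD4 markers summed to 216, 263 and 202 FPM and the 6 T cell markers (Cd3e and others) to 921, 1081 and 922 FPM.

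S1pr1, Klf2 and Il6ra, genes of recirculation and cytokine sensing, were within counting error of CCR7+ CD4 and 2-fold or more above PD1+ CD4, while 14 of the 15 tested genes of the naive and circulation list had a ratio below 0 over CCR7+ CD4. S1pr1 (chr3:115710433-115715055) had 78.1 FPM in newly activated cells (234 fragments in 157 of 523 cells), 87.7 FPM in CCR7+ CD4 (64 fragments) and 27.7 FPM in PD1+ CD4 (170 fragments). The other 6 CD4+ labels lay between 40.1 and 60.6 FPM, below both CCR7+ CD4 and newly activated cells. As S1pr1 RNA likely marked the label, S1pr1 levels are not independent of it. The log2 ratio of S1pr1 was -0.17 (-0.57 to 0.25) over CCR7+ CD4 and 1.496 (1.21 to 1.79) over PD1+ CD4. Klf2, whose promoter is shown above, had 146 FPM in its whole window, 167 in CCR7+ CD4, 53.1 in PD1+ CD4 and 75.2 to 125 in the other CD4+ labels. Its log2 ratio over PD1+ CD4 was 1.46 (1.25 to 1.67). Il6ra (chr3:89869324-89913196), the receptor of interleukin 6, had its highest level of all 17 labels in newly activated cells, 191 FPM, with 186 FPM in CCR7+ CD4, 185 in Tfh-like and 55.8 in PD1+ CD4 (log2 1.77, 1.58 to 1.97). Its first 3 labels were within counting error of each other. Il6st, the partner chain of that receptor, had 81.1 FPM, 101 in CCR7+ CD4 and 46.7 in PD1+ CD4 (log2 ratio 0.80 over PD1+ CD4). Tcf7, a factor of naive and memory T cells, was at 215 FPM between 241 in CCR7+ CD4 and 130 in PD1+ CD4, with a log2 ratio of 0.72 (0.57 to 0.87) over PD1+ CD4.

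Other naive genes were much less open than in CCR7+ CD4. Ccr7 (chr11:99144199-99155077), which directs cells to lymph nodes, had 102 FPM in newly activated cells against 211 FPM in CCR7+ CD4 and 79.6 FPM in PD1+ CD4. Its log2 ratio was -1.05 (-1.33 to -0.76) over CCR7+ CD4 and 0.36 (0.15 to 0.57) over PD1+ CD4. Satb1 (chr17:51736187-51833290), a chromatin organizer of thymocytes and naive T cells, had 156, 486 and 125 FPM in the same order, a log2 ratio of -1.64 (-1.84 to -1.43) over CCR7+ CD4. The Satb1 level in newly activated cells was among those of the other CD4+ labels, 118 to 217 FPM. Foxp1, a factor that keeps T cells quiescent, had 438, 917 and 349 FPM (log2 -1.06) and Lef1, a partner of Tcf7, 283, 553 and 228 FPM (log2 -0.97). Treml2 had the largest difference of this list, 8.67 against 57.5 FPM (log2 -2.73, -3.49 to -1.99, in a window shared with B430306N03Rik).

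Of 15 tested genes of the naive and circulation list, 0 were 2-fold more open and 5 were 2-fold less open than in CCR7+ CD4. Of all 12926 tested genes 3.78% and 2.1% passed that limit. Ccr7, Satb1, Foxp1 and Treml2 were among the 5. Ccr7 names the CCR7+ CD4 label, so that its call is not independent of that label. The list's median log2 ratio was -0.61 beside 0.00 for all genes. Over PD1+ CD4, 3 of 15 were higher (S1pr1, Klf2 and Il6ra) and 0 lower, with a background of 0.883% higher and 4.55% lower among 14955 genes and a median of 0.33 beside 0.10. The 3 genes that were higher than in PD1+ CD4 are not among the 5 that were lower than in CCR7+ CD4. The overlap of such calls over all tested genes is not given here, so that nothing is read from this. S1pr1, 1 of the 3, likely marked the label. Il7r, the receptor of interleukin 7, was alike in the 3 labels at 54.4, 54.8 and 49.97 FPM.

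**Figure D1:**
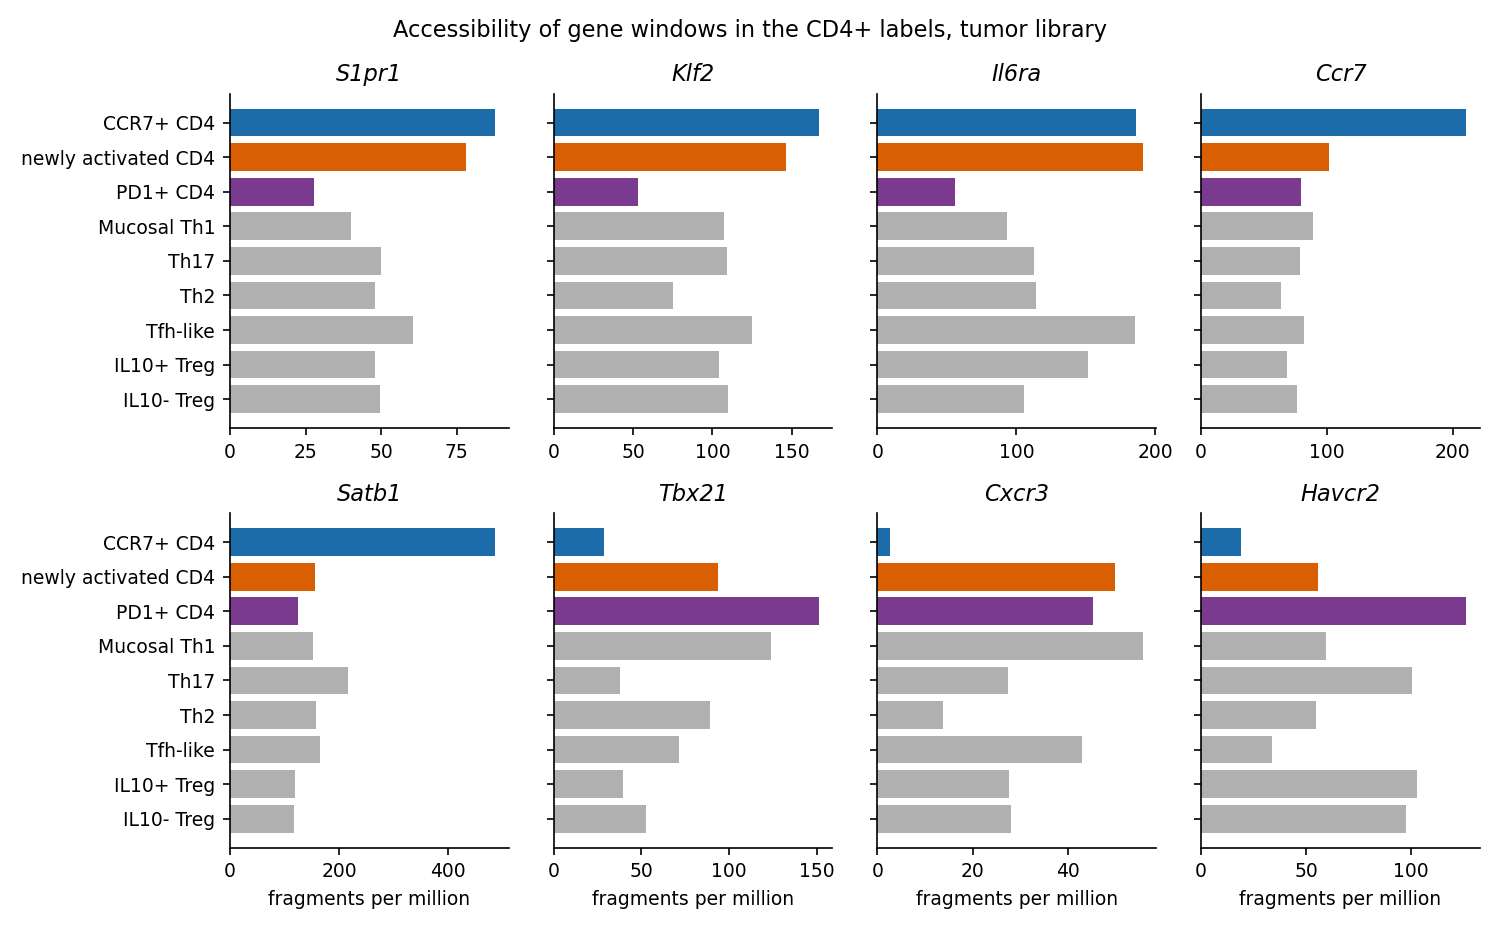
FPM in 8 gene windows (x axes, from 0) in the 9 CD4+ labels of the tumor library, newly activated cells in orange. S1pr1, Klf2 and Il6ra sit near CCR7+ CD4 (blue), Ccr7 and Satb1 sit near the other labels, Tbx21 and Havcr2 lie between CCR7+ CD4 and PD1+ CD4 (purple), and Cxcr3 is at 49.7 FPM beside 2.74 and 45.3 FPM.

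Of 13 tested genes of the type 1 program, which drives interferon gamma production, 5 were 2-fold more open than in CCR7+ CD4 (Cxcr3, Ifng, Tbx21, Ccl5 and Nkg7), where 3.78% of all tested genes were. The list summed to 1151 FPM in newly activated cells and 785 in CCR7+ CD4. Cxcr3 and Ifng reached the minimum of 50 fragments through newly activated cells alone, so that the count can lean upward. Cxcr3 (chrX:101731535-101734147), the receptor for interferon-induced chemokines, had 149 fragments in newly activated cells, found in 110 of 523 cells, and 2 fragments in 1 of 164 CCR7+ CD4 cells. These are 49.7 and 2.74 FPM, a log2 ratio of 4.18 (2.30 to 7.24), while PD1+ CD4 had 45.3 FPM (log2 0.14). Ifng (chr10:118441046-118445894) had 84 fragments in 68 newly activated cells (28.0 FPM), 0 fragments in CCR7+ CD4 and 246 in PD1+ CD4 (40.04 FPM). The log2 ratio was 2.77 over CCR7+ CD4, with the floor in place of 0, and -0.51 (-0.89 to -0.15) over PD1+ CD4. Tbx21 (chr11:97098007-97115331), which encodes T-bet, the master factor of the program, had 93.7, 28.8 and 151 FPM in newly activated, CCR7+ CD4 and PD1+ CD4 cells. Its log2 ratio was 1.70 (1.06 to 2.42) over CCR7+ CD4 and -0.69 (-0.89 to -0.49) over PD1+ CD4, and within 1 kb of the gene ends alone the ratio over CCR7+ CD4 was -0.08 (-0.87 to 0.78). The chemokine gene Ccl5 had 42.0, 8.22 and 74.1 FPM (log2 2.35 and -0.82). Il18rap, a chain of the interleukin 18 receptor, was the type 1 gene furthest below PD1+ CD4, at 37.0, 19.2 and 111 FPM (log2 0.95 over CCR7+ CD4 and -1.58, -1.88 to -1.29, over PD1+ CD4). Gzmk, a granule protease of the killing list, had 156, 3 and 280 fragments, with 52.0, 4.11 and 45.6 FPM and a log2 ratio of 3.66 (2.09 to 5.96) over CCR7+ CD4. Besides these 5 higher type 1 genes 0 were 2-fold lower than in CCR7+ CD4 (median 0.83), and 0 were higher and 1 lower than in PD1+ CD4 (median -0.51), beside 0.883% and 4.55% of all tested genes. The study marked its Th1 clusters by Tbx21 and Ifng RNA, and PD1+ CD4 is likely 1 of them. Type 1 ratios over PD1+ CD4 are thus not independent of that label. Eomes, a relative of T-bet, had 29.0 FPM against 50.7 in CCR7+ CD4 (log2 -0.80) and 37.9 in PD1+ CD4.

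Cd44, Tnfrsf9, Il2 and Il21, 4 of 15 tested genes of the activation and costimulation list, were 2-fold more open than in CCR7+ CD4, beside 3.78% of all tested genes, and so was Il10. Il10, an inhibitory cytokine, had 171 fragments in 117 newly activated cells against 4 fragments in CCR7+ CD4 (57.0 and 5.48 FPM, log2 3.38, 1.997 to 5.27) and 45.3 FPM in PD1+ CD4. Il2, the T cell growth factor, had 41.4, 13.7 and 30.4 FPM (log2 1.59, 0.67 to 2.69, over CCR7+ CD4 and 0.44 over PD1+ CD4), and only Th2 cells exceeded it among the CD4+ labels with 63.8 FPM. Il21, a cytokine that helps B cells, had 25.02, 10.96 and 31.6 FPM (log2 1.19 over CCR7+ CD4). Cd44, an adhesion receptor of antigen-experienced cells, had 193, 95.9 and 187 FPM (log2 1.01 and 0.04), with -0.41 (-1.14 to 0.38) over CCR7+ CD4 within 1 kb of the gene ends. Tnfrsf9 (4-1BB, a costimulatory receptor) had 194, 95.9 and 232 FPM (log2 1.02 and -0.26). Cd28, the main costimulatory receptor, had its highest level of the CD4+ labels here, 178 FPM against 151 in CCR7+ CD4 and 126 in PD1+ CD4 (log2 0.24 and 0.50). Of the activation and costimulation list 0 genes were 2-fold lower than in CCR7+ CD4 (median 0.48), and 0 were past 2-fold over PD1+ CD4 in either direction (median -0.01). These counts of 0 are near the shares of all tested genes, 2.1% lower over CCR7+ CD4, and 0.883% higher and 4.55% lower over PD1+ CD4. Cd69, an early surface marker of activation, had 52.0, 52.1 and 56.0 FPM, and Cd40lg, which signals to B cells and dendritic cells, had 32.4, 24.7 and 23.9 FPM.

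Early response and AP-1 factors differed little from CCR7+ CD4. Of 15 tested genes 1 was 2-fold higher and 0 lower (median 0.14), and over PD1+ CD4 0 were higher and 1 lower (median 0.00, or -0.20 when scaled by fragments near gene ends). These counts are near the shares of all tested genes, 3.78% higher and 2.1% lower over CCR7+ CD4 and 0.883% and 4.55% over PD1+ CD4. Bhlhe40, a factor of cytokine-producing T cells, was the higher one, with 227, 69.9 and 310 FPM (log2 1.70, 1.29 to 2.14, and -0.45). Nr4a2, a nuclear receptor induced by antigen receptor signals, was the lower one, with 73.1, 57.5 and 155 FPM (log2 0.34 and -1.08, -1.30 to -0.87). Its relatives Nr4a1 (209, 232 and 163 FPM) and Nr4a3 (285, 259 and 285 FPM) were not past 2-fold in either comparison. Nfkb1 and Rel, subunits of NF-κB, and Batf, an AP-1 partner, had log2 ratios of 0.53, 0.51 and 0.55 over CCR7+ CD4 and -0.66, -0.66 and -0.55 over PD1+ CD4.

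Inhibitory receptor genes differed from one another in where the newly activated cells stood. Pdcd1 (chr1:94038305-94052553) had 167 FPM in newly activated cells, 110 in CCR7+ CD4 and 230 in PD1+ CD4, with log2 ratios of 0.61 (0.27 to 0.97) and -0.46 (-0.61 to -0.31). Pdcd1 names the PD1+ CD4 label, so that its ratio over that label is not independent of it. Havcr2 (chr11:46454931-46481255) had 55.7, 19.2 and 126 FPM, with log2 ratios of 1.54 (0.75 to 2.44) and -1.18 (-1.43 to -0.94). A Havcr2 fragment was found in 20.1% of newly activated cells, 5.49% of CCR7+ CD4 and 57.5% of the more deeply covered PD1+ CD4 cells. Tigit (chr16:43626137-43665125, a window shared with Zbtb20) was level with PD1+ CD4, at 169, 75.4 and 158 FPM (log2 1.17, 0.76 to 1.60, and 0.10). Ctla4, which competes with Cd28 for its ligands, had 92.1, 39.7 and 99.1 FPM (log2 1.21 and -0.11), and Tox2, a relative of Tox, 147.5, 58.9 and 175 FPM (log2 1.32 and -0.25). Tox, a factor of exhausted T cells, was lower than in PD1+ CD4 and near CCR7+ CD4, at 224, 258 and 359 FPM (log2 -0.20 and -0.68). Of 11 tested genes of this list, 4 were higher and 0 lower than in CCR7+ CD4 (median 0.08), beside 3.78% and 2.1% of all tested genes, and 0 were higher and 1 lower than in PD1+ CD4 (median -0.27), beside 0.883% and 4.55%.

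The lists of the other helper programs differed in how many genes were more open than in CCR7+ CD4. Beside a background of 3.78% of all tested genes higher and 2.1% lower, 4 of 5 tested type 17 genes were higher and 0 lower than in CCR7+ CD4 (median 1.37), while the type 17 cytokine genes Il17a, Il17f and Il22, also on that list of 8, had too few fragments to be tested, and 0 passed 2-fold over PD1+ CD4 (median -0.40). Ccr6, a chemokine receptor of Th17 cells, had 32.0, 5.48 and 54.5 FPM (log2 2.55) and 97.9 FPM in Th17 cells. Rora had 594, 253 and 913 FPM (log2 1.23, 1.01 to 1.46). The whole list of 8 summed to 753, 311 and 1117 FPM. Genes with few CCR7+ CD4 fragments were tested through newly activated cells, so that the count and median over CCR7+ CD4 can lean upward. Of the type 2 genes, Il13 had 22.4, 2.74 and 51.9 FPM (log2 3.03 and -1.22) and 82.0 FPM in Th2 cells, and Gata3, the Th2 factor, had 189, 181 and 210 FPM and 317 FPM in Th2 cells. The type 2 list had 1 of 5 tested genes higher over CCR7+ CD4 (median 0.85) and 3 of 7 lower over PD1+ CD4 (Il4, Il13 and Ccr8, median -0.60). Over PD1+ CD4 4.55% of all tested genes were lower and 0.883% higher. Within 1 kb of its gene ends Il4 had 5 fragments in both labels (log2 1.04, -1.08 to 3.15). Foxp3, the factor of regulatory T (Treg) cells, had 31.0, 27.4 and 26.0 FPM (log2 0.18 and 0.25) against 79.2 FPM in IL10+ Treg and 76.0 FPM in IL10- Treg cells. Ikzf2, another Treg factor, had 144, 53.4 and 201 FPM (log2 1.43) and 436 FPM in IL10- Treg cells. The Treg list had 2 of 5 tested genes higher over CCR7+ CD4 (median 0.53) and 0 of 6 past 2-fold over PD1+ CD4 (median -0.04). Cxcr5, the follicular homing receptor, had 89.7, 104 and 71.3 FPM and 171 FPM in Tfh-like cells, and Bcl6, the follicular helper factor, was lowest of the CD4+ labels in newly activated cells at 113 FPM against 117 to 145 elsewhere. The follicular list had 1 of 6 tested genes higher over CCR7+ CD4 (Cebpa, 2.11, median 0.09) and 0 past 2-fold over PD1+ CD4 (median 0.18, or -0.02 when scaled by fragments near gene ends).

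Among tissue residency genes, Ahr, a sensor of gut metabolites, had 57.0, 8.22 and 57.0 FPM (log2 2.79, 1.64 to 4.26, over CCR7+ CD4 and 0.00 over PD1+ CD4). Gpr15 and Ccr9 encode receptors that guide T cells to the large and small bowel. Gpr15 had 18.7, 5.48 and 10.3 FPM (log2 1.77 and 0.87) and Ccr9 10.0, 21.9 and 31.4 FPM (log2 -1.13 and -1.65). The list had 2 of 8 tested genes higher and 0 lower over CCR7+ CD4, and 0 of 9 higher and 1 lower over PD1+ CD4, with medians of 0.46 and 0.00, where the shares of all tested genes were 3.78% and 2.1% over CCR7+ CD4 and 0.883% and 4.55% over PD1+ CD4. Ccr9 had too few fragments over CCR7+ CD4 to be among the 8. Interferon-stimulated genes showed no member past 2-fold in either comparison (9 tested in each), with medians of -0.26 over CCR7+ CD4 and 0.26 over PD1+ CD4. Prf1, the pore-forming protein of the killing list, was lower than in CCR7+ CD4, at 15.0 against 65.8 FPM (log2 -2.13), while Gzmb, a granule protease, had 16.3 against 5.48 FPM (log2 1.58). With Gzmk, 2 of 5 killing genes were higher and 1 lower than in CCR7+ CD4, beside the same 3.78% and 2.1%. The median was 0.05, or -0.21 without high-count cells. Over PD1+ CD4 0 passed 2-fold (median -0.27).

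**Figure D2:**
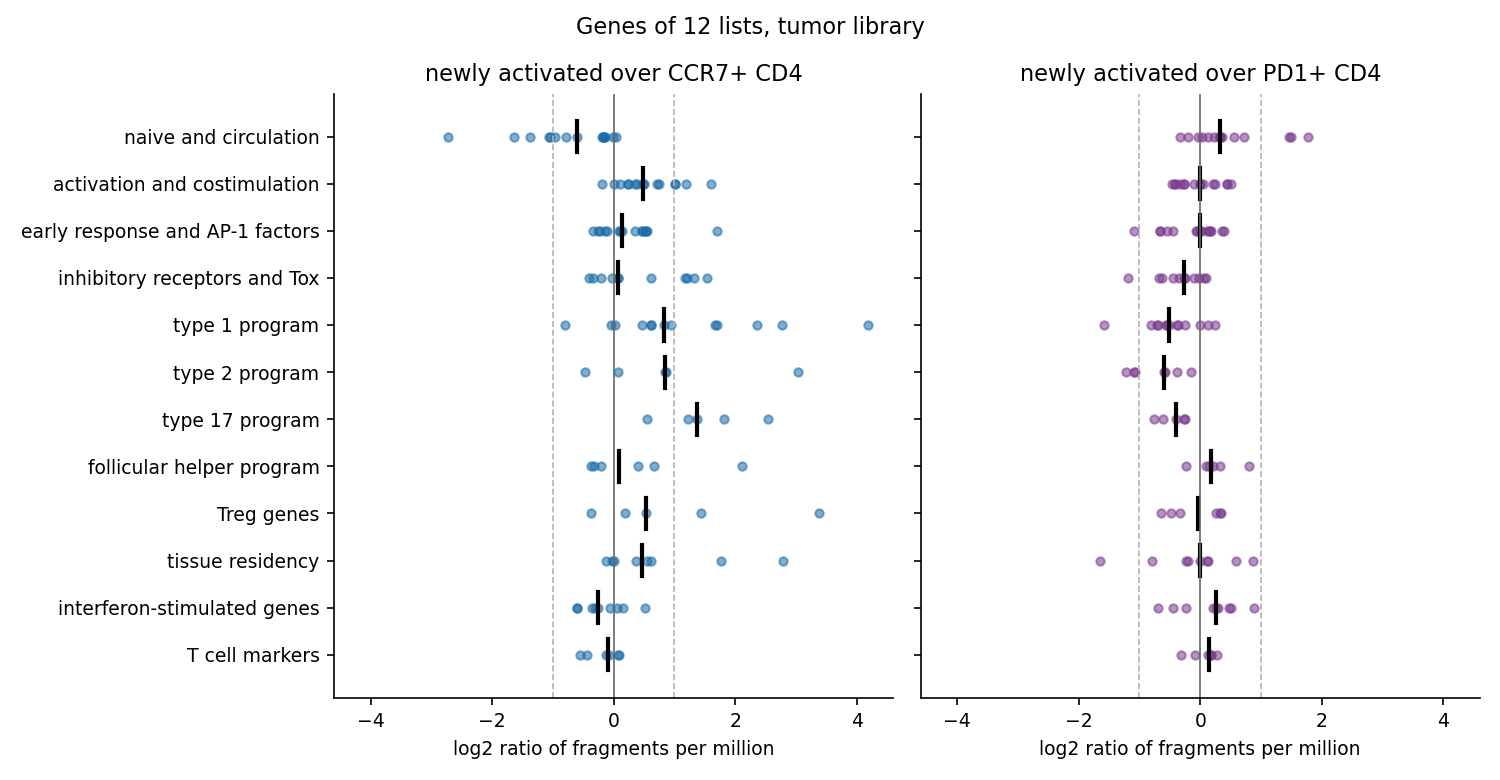
Log2 ratio of FPM (x axis) of each tested gene (points) in 12 gene lists, newly activated over CCR7+ CD4 on the left and over PD1+ CD4 on the right, tumor library. Black bars are list medians and dashed lines mark 2-fold. The naive list has its median at -0.61 on the left and 0.33 on the right, and the type 1 list at 0.83 and -0.51.

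Across all genes, 488 were 2-fold more open and 272 less open in newly activated cells than in CCR7+ CD4, and 132 more and 680 less than in PD1+ CD4. Within 1 kb of gene ends alone the first counts were 238 and 86, and 320 genes were less open than in PD1+ CD4. Tested genes needed 50 fragments over both labels, which the deeper label alone could supply. This was newly activated cells in the comparison with CCR7+ CD4, and PD1+ CD4 in the other comparison. The counts of more open and less open genes are therefore not like for like. Besides Ifng, the genes furthest above CCR7+ CD4 by the bound of the interval were Mmp10, a matrix protease, Igsf9b, Krt83 (4.94) and Mfap5 (4.93). Mmp10 had 94 against 0 fragments (2.93 with the floor) and Igsf9b 92 against 0 (2.90 with the floor). All 4 were also open in PD1+ CD4, at 16.0, 29.6, 50.8 and 47.5 FPM. The genes furthest below were Atp1b1, a sodium pump subunit (7.01 against 100.01 FPM, log2 -3.84), Flt3 (-3.27), Arpp21 (-3.40), Stra6 (-3.24) and Cnksr3 (-3.06).

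Over PD1+ CD4 the genes furthest above were Gcm2 (2.97), Olfr157 (2.33), Rnf32 (2.10), Pilrb1 (2.62) and Dcdc2c (2.58). Olfr157 had 30.4 FPM in newly activated cells, 2.74 in CCR7+ CD4 and 6.02 in PD1+ CD4, and the ratio of Dcdc2c was 0.27 without high-count cells. The genes furthest below were Krt17, a keratin (0.67 against 24.6 FPM, log2 -5.20), Fam20c (-4.601), Tff1, a secreted mucosal peptide (5.67 against 83.5 FPM, -3.88), Actbl2 (-3.48) and the chemokine gene Cx3cl1 (7.01 against 74.7 FPM, -3.41). CCR7+ CD4 cells were as low as newly activated cells in these 5 windows, at 0 to 8.22 FPM. The epithelial markers Krt8, Krt19 and Krt20 were near 0 in PD1+ CD4 (2.28, 0.98 and 3.26 FPM) as in newly activated cells (1.001, 0.33 and 0.67 FPM). Of the 10 epithelial markers 4 could be tested over PD1+ CD4, with a median log2 ratio of -0.34 (0.08 without high-count cells). Of these 0 passed 2-fold, beside 0.883% of all tested genes higher and 4.55% lower. Among the 4, Vil1 had 13.01 against 22.8 FPM (-0.81, -1.36 to -0.29). The part of these markers in the genes less open than in PD1+ CD4 was not tested.

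Few genes set newly activated cells apart from all 8 other CD4+ labels. A 2-fold difference from every one of them in the same direction was met by 3 of 16583 genes upward (0.0181%) and 8 downward (0.0482%), and by 0 upward without high-count cells. The 8 downward genes had 1 to 10 fragments in newly activated cells, and 2 were left with a pseudocount of 1 FPM. The 3 upward genes, named after their values were seen, were Foxr1 (31 fragments, log2 1.05 over IL10- Treg), Dcdc2c and Agmo (44 fragments, log2 1.10, -0.54 to 3.43, over Th2). Dcdc2c had 38 fragments and a log2 ratio of 1.24 with the floor over Tfh-like, which had 0. Its exact interval began at 0.88. Ranked by the interval's bound, the first were genes that did not pass 2-fold over their nearest label, namely Bmp6, a growth factor gene, with 28.4 FPM against 15.8 in the next label, Th17 (log2 0.84, 0.27 to 1.44), and Rap1gap2, an inhibitor of the adhesion switch Rap1, with 161 FPM against 128 in Th17 (0.33, 0.12 to 0.55). Bmp6 shares its window with Txndc5, and within 1 kb of the gene ends Rap1gap2 had 5 fragments against 11 in PD1+ CD4 (log2 -0.10, -1.98 to 1.54). Pdzrn3 had 36.0 FPM against 20.6 in CCR7+ CD4, its next label, and Niban2 had 159 FPM against 140 in IL10- Treg. Il4ra, the interleukin 4 receptor, was lowest in newly activated cells at 152 FPM, but the next label, IL10- Treg with 167 FPM, was within counting error.

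Chromatin outside genes was read in tiles of 500 bp that lie more than 5 kb from every protein-coding span. Over CCR7+ CD4, 891 of 3978 tested tiles were 2-fold more open (22.4%) and 282 less open (7.09%). Over PD1+ CD4, 878 of 12233 were more open (7.18%) and 3250 less open (26.6%). The last count was 2028 without high-count cells, which were most frequent in PD1+ CD4. As with genes, the deeper label alone could supply the fragments that a tile needed to be tested. The deeper label was newly activated cells in the comparison with CCR7+ CD4, and PD1+ CD4 in the other comparison. The counts of more open and less open tiles are therefore not like for like. The tiles more open than in CCR7+ CD4 summed to 16434 FPM in newly activated cells, 4707 in CCR7+ CD4 and 17330 in PD1+ CD4. Those less open summed to 2574, 6908 and 1970 FPM. In the other CD4+ labels the first set had 14069 (Tfh-like) to 16647 FPM (Th17). The second had 2011 (Th2) to 3410 FPM (Tfh-like) there. Neither difference from CCR7+ CD4 was thus particular to newly activated cells. In the cecum library, which played no part in the choice, the first set had 16379 FPM in newly activated cells and 7095 in CCR7+ CD4 (log2 1.21, 1.16 to 1.25) and the second 2725 and 4995 FPM (log2 -0.87).

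Of the tiles furthest from CCR7+ CD4 by the bound, 5 in each direction, those given here are the ones nearest to Il10, Cd44, Cd47 and Satb1. A tile at chr1:130993501-130994000, 26.1 kb from Il10, had 162 fragments in newly activated cells, 3 in CCR7+ CD4 and 188 in PD1+ CD4. These were 54.0, 4.11 and 30.6 FPM, a log2 ratio of 3.72 (2.14 to 6.01) over CCR7+ CD4 and 0.82 (0.51 to 1.13) over PD1+ CD4. The remaining CD4+ labels had 39.8 (IL10- Treg) to 54.8 FPM (Mucosal Th1) in this tile. A pair of tiles within the noncoding RNA gene Gm34483, at chr2:102957001-102957500 and chr2:102948001-102948500, lay 55.6 and 46.6 kb from Cd44 and had 91 and 70 fragments in newly activated cells, 0 in CCR7+ CD4 and 151 and 154 in PD1+ CD4. Another tile, chr16:49970001-49970500, 57.7 kb from Cd47, had 92, 0 and 184 fragments. In the other direction, a tile 335 kb from its nearest gene Satb1 (chr17:52168501-52169000) had 6, 24 and 56 fragments (2.002, 32.9 and 9.12 FPM, log2 -4.04 over CCR7+ CD4).

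Of 5 loci read tile by tile, S1pr1, whose RNA likely marked the label, had the largest share of tiles more open than in PD1+ CD4. Within 50 kb of its span, 14 of 22 tested tiles were 2-fold more open than in PD1+ CD4 and 0 less open, where 4.93% and 15.1% of 69668 tested tiles were, counting tiles within genes as these loci do. Over CCR7+ CD4, 1 of 14 was more open and 0 less open, where 11.4% and 3.81% of 32411 tiles were. The tile at chr3:115682501-115683000, 27.7 kb outside the span, had 84, 31 and 13 fragments in newly activated, CCR7+ CD4 and PD1+ CD4 cells. Its 28.0, 42.5 and 2.12 FPM gave a log2 ratio of 3.73 (2.88 to 4.69) over PD1+ CD4 and -0.60 (-1.21 to 0.04) over CCR7+ CD4. The neighboring tile had 45, 11 and 7 fragments. A tile 46.0 kb to the other side of the middle of S1pr1 (chr3:115758501-115759000) was the one more open than in both labels, with 31.0 FPM against 13.7 in CCR7+ CD4 (log2 1.18, 0.24 to 2.29) and 13.8 in PD1+ CD4 (log2 1.17, 0.73 to 1.61). It was picked after its values were seen. Around Pdcd1 1 of 25 tested tiles was more open and 9 less open than in PD1+ CD4. Pdcd1 names that label, so that these tiles are not independent of it. Around Ccr7 4 of 14 were less open and 1 more open than in CCR7+ CD4, and 6 of 36 were more open and 6 less open than in PD1+ CD4. Around Cd4, 0 of 16 tiles differed 2-fold from CCR7+ CD4.

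**Figure D3:**
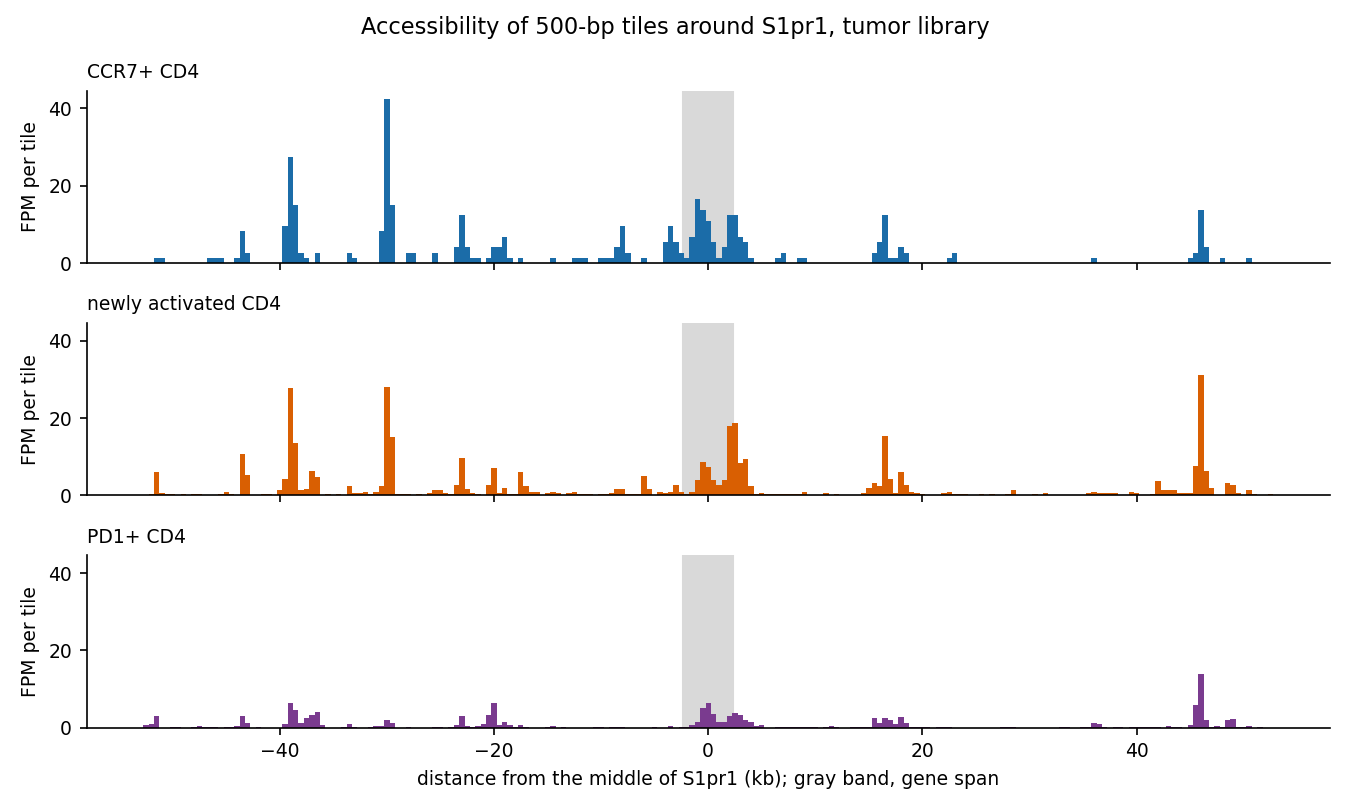
FPM in tiles of 500 bp (y axis) against the distance from the middle of S1pr1 in kb (x axis) in CCR7+ CD4, newly activated and PD1+ CD4 cells of the tumor library, with the gene span in gray. The tile near -30 kb has 28.0 FPM in newly activated cells and 2.12 FPM in PD1+ CD4, and the tile near 46 kb has 31.0 FPM in newly activated cells and 13.7 FPM in CCR7+ CD4.

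To place newly activated cells between CCR7+ CD4 and PD1+ CD4, genes and tiles that differed 2-fold between those labels were chosen in alternate cells of both and measured in the cells left. On a log2 scale from 0 (PD1+ CD4) to 1 (CCR7+ CD4), the summed newly activated level was 0.43 for the 469 genes chosen as more open in CCR7+ CD4 and 0.51 for the 1265 chosen as more open in PD1+ CD4. For distal tiles the summed level was 0.67 for 399 tiles chosen as more open in CCR7+ CD4 and 0.37 for 1214 chosen as more open in PD1+ CD4. A position of a single gene or tile was taken only where the cells left kept the direction of the choice, with the floor for a count of 0, so that the medians rest on a selected part. They were 0.43 (0.38 to 0.46) for 433 genes and 0.46 for 1120 genes, and 0.62 for 337 tiles and 0.55 for 1085 tiles, in the same order. Scaling by fragments near gene ends moved the medians of the genes to 0.28 and 0.54.

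Single cells were then scored by the share of their fragments in CCR7+ CD4 tiles among fragments in both tile sets, with each cell thinned to 2000 fragments. The median score was 34.4% in 393 newly activated cells, 58.6% in 54 CCR7+ CD4 and 18.3% in 258 PD1+ CD4 cells that had not chosen the tiles. There were 130 newly activated cells left out as too shallow, and without thinning the medians were 34.9, 59.6 and 18.03%. Of the 393 cells 374 (95.2%) scored between the other medians, 5 at or above the CCR7+ CD4 median and 14 at or below the PD1+ CD4 median. This was not particular to the label, as 95.3% of Mucosal Th1, 87.3% of Tfh-like and 85.8% of IL10+ Treg cells also scored between these medians. The scores of newly activated cells formed 1 broad peak with an SD of 9.21 percentage points, where counting alone would give an SD of 7.24. Among the CD4+ labels Tfh-like cells (39.5%) lay nearest CCR7+ CD4, followed by newly activated cells and Mucosal Th1 cells (29.4%), with Th17, Treg and Th2 cells at 25 to 26.7%.

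**Figure D4:**
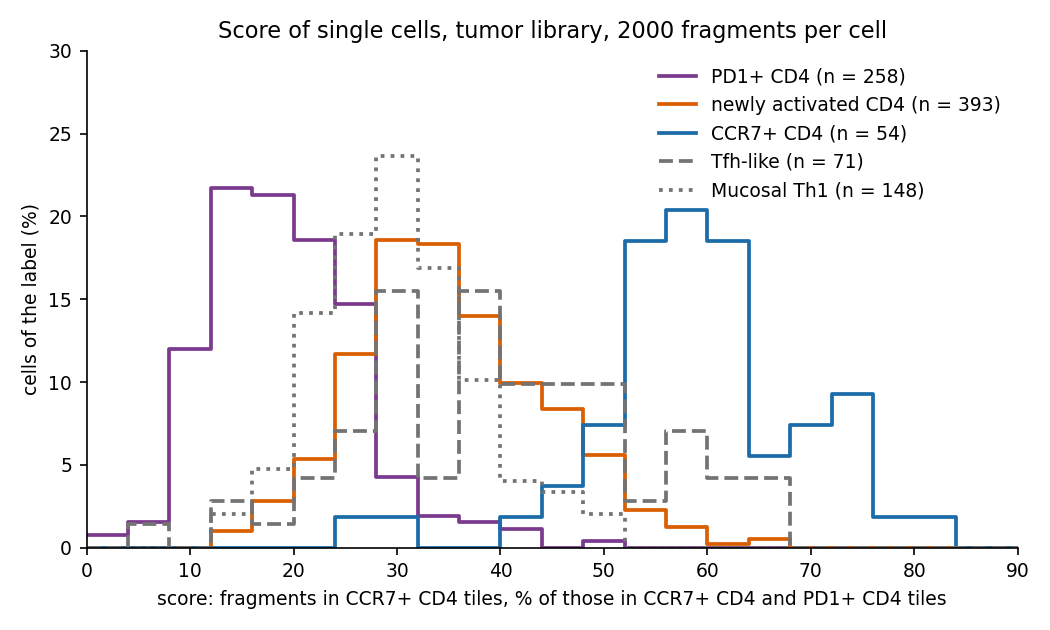
Share of cells of a label (y axis, %) by score (x axis, fragments in CCR7+ CD4 tiles as % of those in both tile sets), tumor library, 2000 fragments per cell. The curve of newly activated cells has its median at 34.4%, between PD1+ CD4 (18.3%) and CCR7+ CD4 (58.6%).

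The 393 scored cells were split by score into a lowest, middle and highest group of 131 cells each, a split chosen after the scores were seen, to see which genes go with the score inside the label. Gene windows hold none of the distal tiles used for the score. The groups are ranges of a continuous score, and 303 of the 393 cells lie within 1 counting SD of a limit. Havcr2 had 74.1, 54.9 and 35.6 FPM from the lowest to the highest group (log2 of highest over lowest -1.06, -1.71 to -0.44). Ccl5 had 57.2, 39.8 and 26.4 FPM (-1.12), Tbx21 119, 81.8 and 73.4 FPM (-0.70) and Il18rap 50.6, 32.3 and 25.2 FPM (-1.004), so that these 4 genes were most open in the group nearest to PD1+ CD4. Other type 1 genes had another order, Stat4 with 273, 288 and 212 FPM and Cxcr3 with 50.6, 53.8 and 43.6 FPM, and the ratio of Ifng was -0.11 (-0.87 to 0.64). In the other direction, Klf2 had 125, 149 and 166 FPM (0.42) and Cxcr5 had a log2 ratio of 0.74, while S1pr1 had an interval that includes 0 (0.46, -0.01 to 0.94) and Ccr7 and Cd4 had 0.02 and 0.19. Of 13 tested type 1 genes 2 had a ratio above 0 (median -0.22), and of 13 naive genes 9 had (median 0.10), beside a median of 0.03 over 11218 genes, of which 0.267% were 2-fold higher and 0.535% lower. Neither direction was particular to these lists. All 6 T cell markers had a ratio above 0 (median 0.17), as had 4 of 5 follicular genes (median 0.13). The interferon-stimulated list had 0 of 7 above 0 (median -0.23), and the medians of tissue residency and Treg genes were -0.23 and -0.27. The median fragment count was 6973, 5445 and 5311 per cell in the lowest, middle and highest group, and the share of fragments near gene ends 43.2, 45.2 and 45.5%. Of the markers of other cells, the myeloid factor Spi1 had 56.2, 33.4 and 29.8 FPM (-0.92, -1.64 to -0.23), with 0 of 3 tested myeloid markers above 0 (median -0.48), and the B cell gene Cd79a had a ratio of 0.47 (0.05 to 0.90). The part of depth, of the share near gene ends and of these markers in the differences was not tested.

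**Figure D5:**
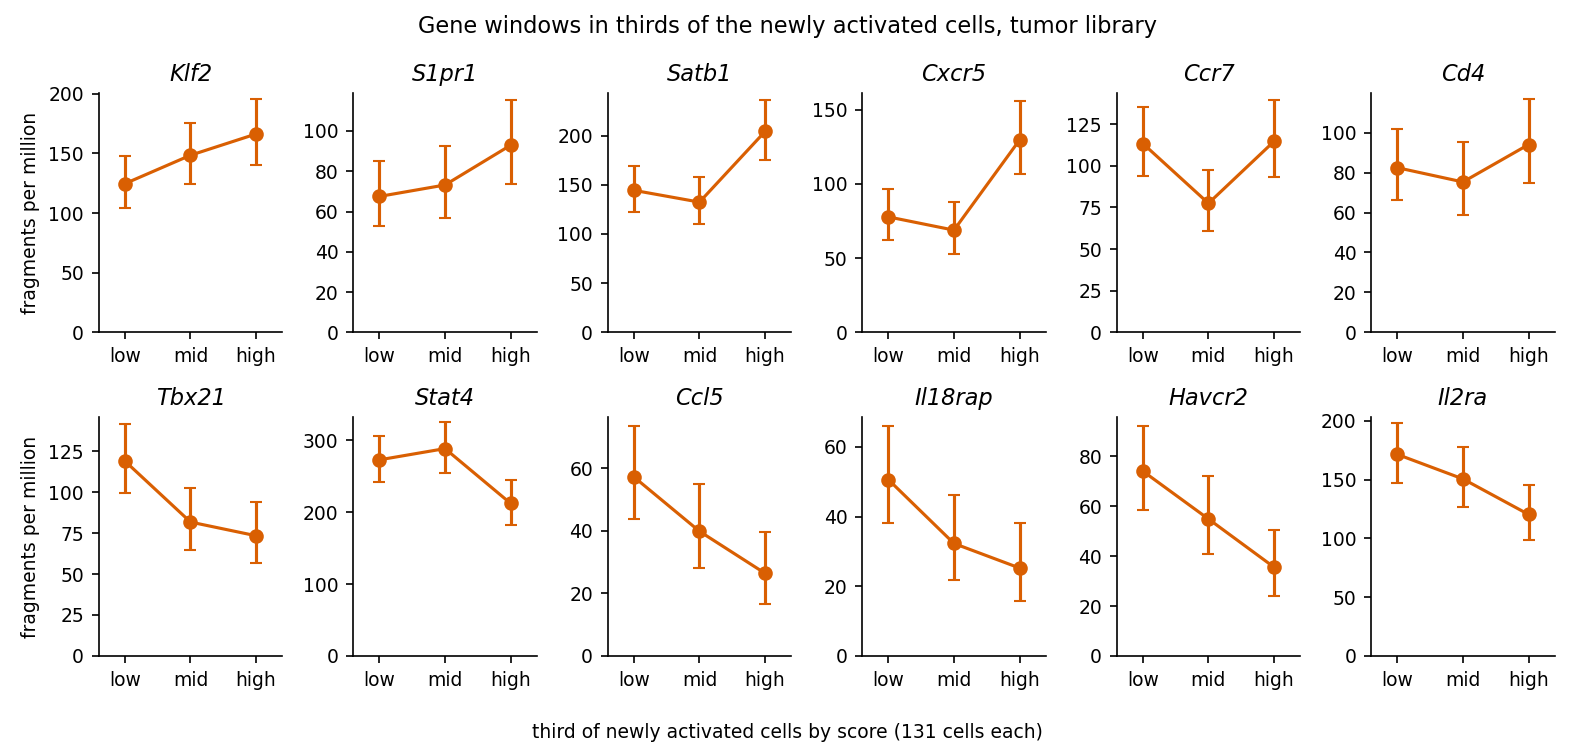
FPM (y axes, from 0) of 12 gene windows in newly activated cells of the tumor library split by score into low, middle and high groups of 131 cells. Error bars are exact 95% counting intervals. Havcr2 goes from 74.1 to 35.6 FPM and Klf2 from 125 to 166 FPM.

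The 77 newly activated cells of the cecum had 426832 fragments and were compared with 125 CCR7+ CD4 cells there. The median CCR7+ CD4 cell of the cecum was deeper, with 8588 fragments against 3599. Cxcr3 had 39.8 against 5.87 FPM (log2 2.76), Tbx21 84.3 against 18.4 FPM (2.19), Il2 72.6 against 7.54 FPM (3.27) and Il10 49.2 against 3.35 FPM (3.88). Satb1 had 124 against 545 FPM (-2.13) and Ccr7 63.3 against 223 FPM (-1.82). These differences have the direction seen in tumor, although Cxcr3, Il2 and Il10 had only 17, 31 and 21 fragments in newly activated cells of the cecum and fell short of the minimum for the counts. S1pr1 and Il6ra had 58.6 against 94.7 FPM (log2 -0.69, -1.38 to -0.06) and 108 against 176 FPM (-0.71, -1.20 to -0.24), and thus were less open than in CCR7+ CD4 in the cecum, where the tumor ratios were -0.17 and 0.03. The difference between the libraries was not tested. Markers of other cells also differed in the cecum, where the γδ and innate-like list summed to 119 FPM in newly activated cells and 58.7 in CCR7+ CD4 (its 1 tested gene Zbtb16 at log2 2.41), the B cell list to 213 and 150 FPM and the epithelial list to 122 and 81.3 FPM (its 1 tested gene Cdh1 at 1.42). Their part in the cecum differences was not tested. Of the 488 genes called higher in tumor, 132 could be tested in the cecum, and 112 (84.8%) were above 0, where 46.6% of the 10752 genes tested in both libraries were, and 67 passed 2-fold, where 1.52% of 10761 genes were 2-fold higher. Of the 272 called lower, 192 could be tested, 188 (97.9%) had the same sign and 125 passed 2-fold, where 3.59% were 2-fold lower. Within the label, 246 of 12702 genes were 2-fold higher in tumor than in cecum (1.94%) and 59 lower (0.464%), and without high-count cells 480 were higher. The furthest by their bounds were F2rl2 (3.40) and Ccdc117 (1.99) upward and Gabrb1 (-2.71) and Mertk, a receptor for dying cells (-1.60), downward. For Gabrb1, 27 of the 41 fragments in the cecum came from 1 of 77 cells. Il6ra was among the naive genes more open in tumor than in cecum (log2 0.82, 0.39 to 1.29), while Klf2 (0.06) and Tcf7 (0.01) were alike.

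As a last description, the distal profile of each label was correlated with that of newly activated cells over 3905 tiles, with 438981 fragments drawn per label. Pearson's r of log2(FPM + 1) was 0.606 for Mucosal Th1, 0.596 for Th17, 0.594 for Tfh-like, 0.526 for Th2, 0.525 for IL10+ Treg, 0.513 for CCR7+ CD4, 0.507 for IL10- Treg and 0.436 for PD1+ CD4. Of the labels of CD8 T cells, PD1+ CD8 had 0.501, CCR7+ CD8 0.477, Cytotoxic CD8 0.448 and CD8aa 0.292. The γδ and innate-like labels had 0.283 (Innate-like T#1) to 0.472 (Rorgt gdT). The labels share 1 library and the tiles share base composition, and tiles are not independent replicates. Over gene windows r was 0.943 to 0.952 for the CD4+ labels and 0.941 (CD8aa) to 0.949 (PD1+ CD8) for the labels of CD8 T cells. The γδ and innate-like labels had 0.939 (Rorgt gdT) to 0.944 (Innate-like T#2). Gene windows thus did not set the CD4+ labels apart from the others.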

How the data were processed

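The deposited fragments are the output of Cell Ranger ARC 2.0.0 run by the authors on mm10, per the file headers. The authors deposited one line per deduplicated fragment, with a barcode and the raw count of its read pairs, all barcodes kept and nothing normalized. Per the study's methods, cells were clustered on RNA and the labels carried over to ATAC, and a deposited annotation gives the label and library of each cell. The sources used here do not say whether doublets were removed, and none were called. The RNA counts were not analysed here, and 0 columns belonged to other series.

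On the 19 autosomes, X and Y a fragment was counted once per window holding either end, and counts were summed over a label's cells. Spans of 21884 genes were those of RefSeq on GRCm38.p6, the build of mm10, given without strand or exons, so that the place of a tile within a gene is not stated. Of 160 listed genes 158 had a position, and the genes without one were not counted. Ratios used genes with at least 50 and tiles with at least 30 fragments over both labels. A count of 0 was set to a floor of 3 fragments, in 1 direction only, and such a ratio is not an exact lower limit. Shares have exact Clopper-Pearson intervals, at 95%, that like all intervals cover counting error only. Depth behind each label stands in the report. Sequence was available only for the RefSeq promoter windows, so no tile sequence was read.

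The members, the gene lists and the rules were chosen with earlier results of these data known. Named genes are Cd4, S1pr1, listed genes past 2-fold, the 5 highest and lowest by interval bound in each comparison and the 3 tiles by bound at 5 loci. Other listed genes are given to fill out their lists. Some genes and alleles are not reported here. Alternatives were other cell filters, gene windows, scalings, minimums, distances, thinning and a pseudocount. The counter and the ratios were tested on simulated data. The software was scipy 1.17.1, pyarrow 21.0.0, numba 0.67.0, pandas 2.3.3, matplotlib 3.10.9 and numpy 2.4.6 under Python 3.11.15.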

Additional observations from a re-analysis of the deposited data

Results flagged for a closer look

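Gabrb1, a subunit gene of the receptor for the transmitter GABA, went in opposite directions in the libraries when newly activated cells were set against CCR7+ CD4. The log2 ratio was -1.44 in tumor and 1.41 in cecum. In the cecum 27 of the 41 fragments in newly activated cells came from 1 of 77 cells, while in tumor the 44 fragments came from 29 cells with at most 4 in any of them. The window also holds Gabra4. The difference between the libraries was not tested, and with 1 library each, tissue and library cannot be told apart.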

How the results depend on the processing

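No paired analysis was possible because the labels give no replicate numbers and each tissue has 1 library. Of the summary values recomputed under the alternatives 214 stayed the same by the fixed criteria and 48 moved. Values counted as the same were not all unchanged, and some list medians among them changed sign. Without high-count cells, killing genes over CCR7+ CD4 went from 0.05 to -0.21 and epithelial markers over PD1+ CD4 from -0.34 to 0.08. Within 1 kb of gene ends, the naive list over CCR7+ CD4 went from -0.61 to -0.34 and the follicular list from 0.09 to -0.25. Among cells with a CD4+ label the share was 17.1% in tumor and 2.51% in cecum. Counts of genes and tiles followed the limits set on them. Over CCR7+ CD4, genes past 2-fold (higher and lower) were 913 and 475 at a minimum of 20 fragments, 87 and 43 at 200, and 238 and 86 within 1 kb of gene ends. Over PD1+ CD4, 247 were higher at 20, 46 higher and 289 lower at 200, 320 lower within 1 kb of gene ends and 74 higher when scaled by fragments near gene ends. For tumor over cecum they were 518 and 262 at 20, 20 and 1 at 200, and 480 higher without high-count cells. Against every CD4+ label, 0 were higher without high-count cells, 0 within 1 kb of gene ends and 0 at 200, and lower ones, 8 as reported, were 1 at 200 and 2 with a pseudocount of 1 FPM. Tiles over CCR7+ CD4 were 1541 and 633 at 20 fragments, 242 and 47 at 60, and 536 higher beyond 20 kb. Over PD1+ CD4 they were 1470 and 5301 at 20, 310 and 1162 at 60, 551 and 2106 beyond 20 kb, and 2028 lower without high-count cells. List medians that moved were B cell markers over CCR7+ CD4 (-0.37 in cells with at least 1000 fragments, -0.40 without high-count cells), the follicular list over CCR7+ CD4 (-0.37 without high-count cells), type 2 over PD1+ CD4 (-1.27 within 1 kb of gene ends) and type 1 over PD1+ CD4 (-0.72 when scaled by fragments near gene ends). That scaling put the positions at 0.28 and 0.54 for genes and 0.56 and 0.63 for tiles, and choosing and measuring in the same cells put genes at 0.31 (more open in CCR7+ CD4) and 0.38 (more open in PD1+ CD4) and tiles more open in CCR7+ CD4 at 0.44, with the other tiles at 0.497. The median score was 35.1% at 1000 fragments per cell. Within 1 kb of gene ends 4 single-gene ratios turned sign with intervals that include 0, namely Cd44 (-0.41, 65 against 21 fragments) and Tbx21 (-0.081, 66 against 17) over CCR7+ CD4 and Il4 (1.04, 5 against 5) and Rap1gap2 (-0.10, 5 against 11) over PD1+ CD4. For 18 single-gene values no ratio could be given, as a label was at 0 and the other count was too low for the floor to be used. The cause was not tested. Depth limits what can be said of CCR7+ CD4 in tumor and of newly activated cells in cecum.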
